A study of Mus musculus with 11 samples.

Results

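The genes described here are 30 members of hepatic fatty acid oxidation, ketone body synthesis and the Ppara target programme. They were chosen by name from textbook pathway membership, with earlier results of these data known. Each was found through the RefSeq accession that its array probe carries. All 30 had a probe that passed the filter on dim signal, so they make up 30 of 22282 items tested, 13963 of which had a gene symbol. Liver RNA of 11 male mice was hybridised, 1 mouse per array, to 1-colour Agilent arrays. The groups were wild type (WT, 4 mice), β-catΔEx3, which expresses a mutant β-catenin (3 mice), and β-catΔEx3:Myc, named for mutant β-catenin together with Myc (4 mice, which the design text describes by their c-Myc expression). The mice were untreated hybrids, mostly B6SJL with a smaller share of 129S6, and 22 to 40 days old. An exact age is given for WT 4 (31 days), β-catΔEx3 3 (30 days) and β-catΔEx3:Myc 4 (29 days). The labels call every sample liver tissue, and the series' design text calls all the livers tumour-bearing, WT included. They do not say whether a sample was tumour or the liver around it, what drives the transgenes, or whether the mice were fed or fasted.

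Fatty acids taken up by hepatocytes are activated to acyl-CoA, carried into mitochondria by the carnitine shuttle and shortened by the enzymes of the β-oxidation spiral. The acetyl-CoA that results can be turned into ketone bodies. Very long chains start in peroxisomes and some chains are first hydroxylated at the far end by Cyp4a enzymes. Ppara is the nuclear receptor that binds fatty acids in liver and, paired with Rxr, switches on most of these genes during fasting, so feeding state is known to move them.

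Levels below are log2 signal minus the array's 75th percentile (upper quartile), so a value of 0 means a signal equal to that quartile. They can be compared between arrays for 1 gene and not between genes. Differences are log2 fold changes ± standard error from limma, tested 2-sided. P-values were adjusted by the method of Benjamini and Hochberg across the 22282 items, and "rose", "fell" and "called" mean an adjusted p under 0.05. Since the tissue was bulk liver, fewer cells of a type and less RNA per cell cannot be told apart.

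The arrays were alike in brightness: the upper quartile was 227 to 354.3 intensity units and 47.8% to 52.4% of probes were above background. Every member was well above background on all 11 arrays except Fgf21, which was not on β-catΔEx3:Myc 2. The slides were not balanced. WT 1 to 3 shared slide 1 with no other group, β-catΔEx3 1 and 2 and β-catΔEx3:Myc 1 and 2 shared slide 2, β-catΔEx3:Myc 3 was alone on slide 3, and 1 array of each group was on slide 4. With slide as a block, a difference from WT rests on the single WT array of slide 4. The probe for Ctnnb1, which encodes β-catenin, read -0.17 ± 0.15 in β-catΔEx3 and -0.17 ± 0.14 in β-catΔEx3:Myc against WT (adjusted p = 0.416 and 0.378). Its place relative to the exon named in the group labels is not known here, so it does not check the labels. Myc rose in β-catΔEx3:Myc by 3.37 ± 0.68 (adjusted p = 0.00277), and read 1.5 ± 0.73 above WT in β-catΔEx3 (adjusted p = 0.132).

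WT 1 and β-catΔEx3 3 stood apart over the members. WT 1 was the highest WT array for 25 of the 30 members, against 28% of all items. β-catΔEx3 3 was the lowest array of its group for 26 of the 30, against 37.6% of all items, and the highest for Fgf21. β-catΔEx3 2 was the highest of its group for 18 members (34.9% of all items), and β-catΔEx3:Myc 3, alone on its slide, the highest of its group for 18 (30.8% of all items). The β-catΔEx3 arrays had the widest standard deviation of the groups for 23 of the 30 members, against 42.2% of all items. The map of each array's deviation from its own group shows these as a red first column and a blue column for β-catΔEx3 3. Member results are given with and without these arrays where it matters.

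**Figure D1:**
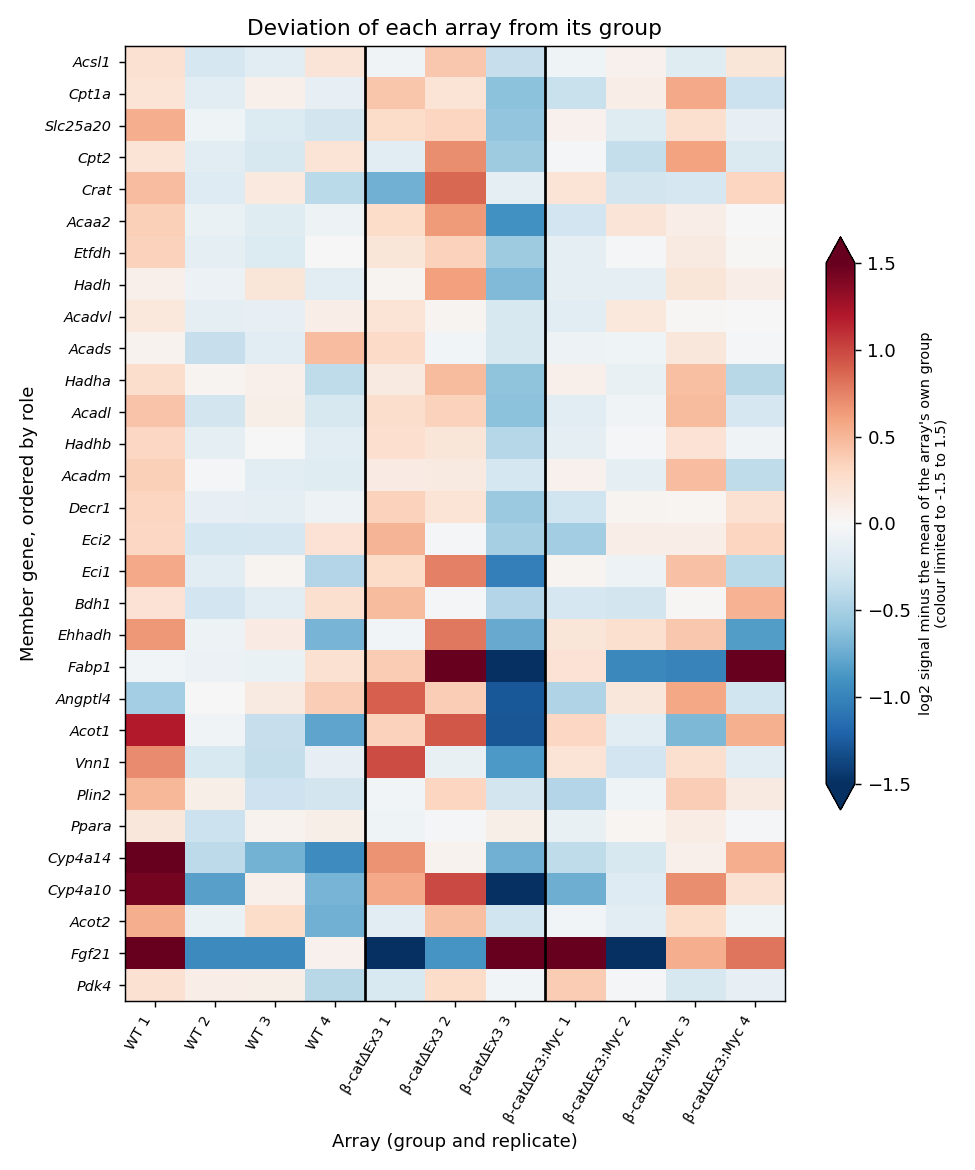
Rows are the 30 members ordered by role, columns the 11 arrays, and colour is log2 signal minus the mean of that array's own group, limited at both ends as the colour bar shows. WT 1 is above its group in most rows (highest in 25 of 30) and β-catΔEx3 3 is below its group in most (lowest in 26 of 30), while Fgf21 on β-catΔEx3 3 is above.

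Most of the enzymes that carry out mitochondrial β-oxidation did not pass the test in either mutant. Most of all items did not pass in each comparison either, and a missing call does not show an unchanged gene. Single genes at the entry, at the ketone end and among the Ppara targets moved far. In β-catΔEx3, 4 members rose (Pdk4, Acot2, Ehhadh and Crat) and 6 fell (Fabp1, Bdh1, Acsl1, Angptl4, Acaa2 and Ppara). Over all items of that comparison 21.6% rose and 15.5% fell, so 4 and 6 of 30 were below and near the background. In β-catΔEx3:Myc, 5 members rose (Pdk4, Acot2, Cyp4a14, Acadm and Hadhb) and 4 fell (Fabp1, Acsl1, Bdh1 and Ppara), beside 25.3% and 17.1% of all items. Pdk4 and Acot2 rose, and Fabp1, Acsl1, Bdh1 and Ppara fell, in both comparisons, which share the WT arrays. In neither comparison were 17 of the 30 members called. The shares of all items called in both comparisons or in neither were not counted, so these 2 counts have no background beside them. The median difference of the members was 0.10 in β-catΔEx3 and 0.06 in β-catΔEx3:Myc, beside 0.10 and 0.14 over all items. In a fit that takes slide as a block, 2 members rose (Pdk4 and Acot2) and 1 fell (Acsl1) in each comparison. Over all 22282 items the blocked fit called 926 higher and 886 lower in β-catΔEx3, and 956 and 991 in β-catΔEx3:Myc. The 4 that rose in β-catΔEx3 became 7 without WT 1 and 2 without any one of WT 2, WT 3, WT 4, β-catΔEx3 2, β-catΔEx3:Myc 1 or β-catΔEx3:Myc 2. The 6 that fell became 3 without WT 3, WT 4 or β-catΔEx3 3. The 5 that rose in β-catΔEx3:Myc became 2 without any one of WT 2, WT 3, WT 4 or β-catΔEx3:Myc 1, 2 or 3, and 3 without β-catΔEx3:Myc 4. With WT 1 and β-catΔEx3 3 both left out, a choice made after seeing the data, 10 rose and 4 fell in β-catΔEx3, and 8 rose and 6 fell in β-catΔEx3:Myc. WT 1 was the highest WT array for most members and β-catΔEx3 3 the lowest of its group. Leaving out WT 1 lowers the WT mean of such members, and leaving out β-catΔEx3 3 raises that of β-catΔEx3. The added rises thus follow in part from the choice of arrays and are no separate support.

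**Figure D2:**
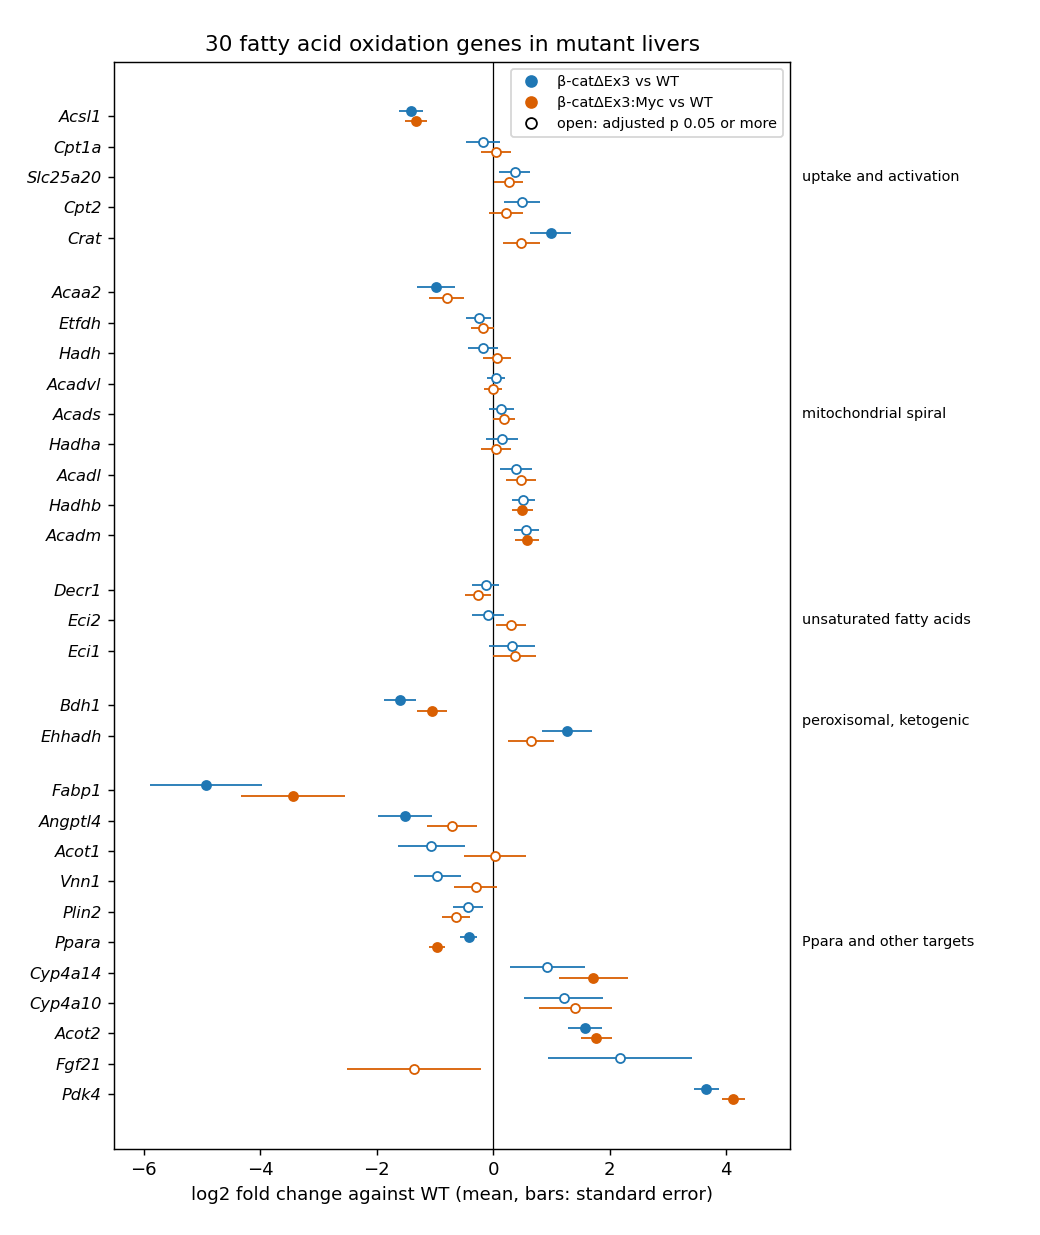
Points are log2 fold changes of the 30 members against WT in β-catΔEx3 (blue) and β-catΔEx3:Myc (orange), bars are standard errors, and filled points have an adjusted p under 0.05. Fabp1 lies far to the left (-4.93 and -3.44) and Pdk4 far to the right (3.66 and 4.12), while the spiral enzymes lie within 1 log2 unit of 0.

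Upstream sequence of 4 members is shown, for those with the largest shifts and for Acot2 with its neighbouring paralog Acot1. They are the 250 bases before the start of each gene in RefSeq's mouse annotation, on GRCm38.p6, in which 23 of the 30 members had an entry. The motif searched for Ppara and its partner was the half-site AGGTCA repeated in the same direction with 1 base of any kind between, on both strands with at most 1 mismatch, and for Tcf, the DNA-binding partner of β-catenin, CTTTGAT on both strands without mismatch. Capitals mark matches. The Fabp1 stretch is chr6:71199629-71199878 on the plus strand, the Pdk4 stretch is chr6:5496279-5496528 on the minus strand, and the Acot1 and Acot2 stretches are chr12:84009252-84009501 and chr12:83987611-83987860, both on the plus strand.
Fabp1: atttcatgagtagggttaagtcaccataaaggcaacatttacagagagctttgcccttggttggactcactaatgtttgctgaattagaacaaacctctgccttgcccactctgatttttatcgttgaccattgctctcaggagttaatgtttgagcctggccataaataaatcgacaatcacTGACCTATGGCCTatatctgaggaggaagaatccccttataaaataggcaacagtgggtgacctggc
Pdk4: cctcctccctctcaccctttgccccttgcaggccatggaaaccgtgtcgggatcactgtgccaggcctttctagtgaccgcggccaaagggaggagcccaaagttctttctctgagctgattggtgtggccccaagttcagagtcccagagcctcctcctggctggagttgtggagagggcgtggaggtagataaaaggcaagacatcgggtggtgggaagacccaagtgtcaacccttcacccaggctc
Acot1: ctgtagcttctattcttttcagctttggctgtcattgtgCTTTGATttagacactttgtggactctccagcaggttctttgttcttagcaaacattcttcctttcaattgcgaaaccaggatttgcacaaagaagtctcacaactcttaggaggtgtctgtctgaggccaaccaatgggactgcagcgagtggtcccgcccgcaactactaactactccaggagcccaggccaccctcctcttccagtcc
Acot2: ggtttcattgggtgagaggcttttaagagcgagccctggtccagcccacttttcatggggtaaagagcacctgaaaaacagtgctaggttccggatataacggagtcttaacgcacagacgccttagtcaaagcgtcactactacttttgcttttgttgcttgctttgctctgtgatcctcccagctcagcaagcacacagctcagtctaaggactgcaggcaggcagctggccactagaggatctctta
Of the 23 members with an entry, only Fabp1 had a match to the direct repeat, from 67 to 55 bases before its start on the minus strand. That is 1 of 25 member promoters, beside 0.484% of all 32851 listed promoters. Only Acot1 among these members had a Tcf match, from 211 to 205 bases before its start. That is also 1 of 25, near the 3.21% of all promoters. Members without an entry were not searched. The upstream stretches of Acot1 and Acot2 were identical at 148 of 295 aligned positions (50.2%). A match is a string of letters and not a measured binding site.

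At the entry to the pathway, Acsl1, the main hepatic enzyme that activates long-chain fatty acids, fell in both mutants. Its level was 7.98, 7.5, 7.59 and 7.95 on the WT arrays. It was 6.30, 6.75 and 6.0 on the β-catΔEx3 arrays and 6.37, 6.5, 6.26 and 6.62 on the β-catΔEx3:Myc arrays. Every mutant array lay below every WT array. The difference was -1.41 ± 0.21 in β-catΔEx3 (2.65-fold lower, adjusted p = 0.000680) and -1.32 ± 0.19 in β-catΔEx3:Myc (2.49-fold lower, adjusted p = 0.000449). A second Acsl1 probe gave -1.53 and -1.47. The slide block gave -1.71 and -1.57, which stayed called (adjusted p = 0.0336 and 0.0416). Acsl1 was called in all 20 alternatives that gave a test.

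Next in the pathway is the carnitine shuttle. Cpt1a, the outer-membrane transferase at which malonyl-CoA limits entry, differed from WT by -0.18 ± 0.29 in β-catΔEx3 and by 0.05 ± 0.26 in β-catΔEx3:Myc. The 95% intervals were -0.81 to 0.45 and -0.53 to 0.64. Slc25a20, the carnitine-acylcarnitine carrier of the inner membrane, read 0.37 ± 0.27 and 0.27 ± 0.25 above WT, and Cpt2, which hands the chain back to CoA, 0.50 ± 0.31 and 0.22 ± 0.29. None of these was called. The second Cpt1a probe gave -0.54 ± 0.25 in β-catΔEx3 and -0.17 ± 0.23 in β-catΔEx3:Myc. The second Cpt2 probe gave 0.62 ± 0.26 and 0.15 ± 0.24. Crat, which handles short-chain acyl groups such as acetyl-carnitine, rose in β-catΔEx3 by 0.99 ± 0.35 (adjusted p = 0.0481). Its levels were -2.49, -0.91 and -1.91 there against -2.29, -2.95, -2.61 and -3.16 in WT, so the groups overlapped. The call was lost in 14 of 20 alternatives with a test, among them without any one array other than WT 1 and β-catΔEx3 1. Without β-catΔEx3 2 the difference was 0.56, with the largest adjusted p of these (0.169).

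Among the 9 members of the mitochondrial spiral, 8 were not called in β-catΔEx3 and 7 were not called in β-catΔEx3:Myc. Over all items 21.6% rose and 15.5% fell in β-catΔEx3, and 25.3% rose and 17.1% fell in β-catΔEx3:Myc. Most items were thus not called either. The acyl-CoA dehydrogenases take the first step, each for its own chain length. Acadvl, for very long chains, lay between 7.81 and 8.11 in WT, 7.76 and 8.21 in β-catΔEx3 and 7.79 and 8.11 in β-catΔEx3:Myc. Its differences were 0.05 ± 0.16 and 0.00 ± 0.15, with 95% intervals of -0.30 to 0.40 and -0.32 to 0.33. Quantile normalization turned the second to -0.32 (adjusted p = 0.0298), and the authors' matrix gave -0.32 as well (adjusted p = 0.0265). Acadl, for long chains, read 0.39 ± 0.28 and 0.48 ± 0.26 above WT, and Acads, for short chains, 0.14 ± 0.21 and 0.18 ± 0.19. Neither was called.

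Acadm, the dehydrogenase for medium chains, was 7.07, 6.69, 6.54 and 6.53 in WT. It was 7.40, 7.42 and 7.02 in β-catΔEx3 and 7.35, 7.14, 7.75 and 6.91 in β-catΔEx3:Myc. Only WT 1 overlapped the mutant ranges. It rose in β-catΔEx3:Myc by 0.58 ± 0.21 (adjusted p = 0.0427), and the difference of 0.57 ± 0.22 in β-catΔEx3 missed the threshold (adjusted p = 0.0662). The call was lost without WT 2, WT 3, WT 4, β-catΔEx3 1 or β-catΔEx3:Myc 1, 2 or 3 (largest adjusted p 0.109). The slide block gave 0.36 (adjusted p = 0.427). Quantile normalization, the authors' matrix and no filter on dim probes also ended the call. So did the 75th percentile taken over probes detected on all arrays. The β-catΔEx3 difference passed without WT 1 (0.69, adjusted p = 0.0421) and without β-catΔEx3:Myc 3.

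Hadha and Hadhb encode the α and β subunits of the mitochondrial trifunctional protein, which carries out the later steps for long chains. They are transcribed away from each other, and RefSeq's starts leave 272 bases between them on chr5:30154981-30155252 of GRCm38.p6, 60.3% of them G or C. The stretch is shown on the plus strand because it lies upstream of both subunits, and it holds neither motif.
Hadha-Hadhb: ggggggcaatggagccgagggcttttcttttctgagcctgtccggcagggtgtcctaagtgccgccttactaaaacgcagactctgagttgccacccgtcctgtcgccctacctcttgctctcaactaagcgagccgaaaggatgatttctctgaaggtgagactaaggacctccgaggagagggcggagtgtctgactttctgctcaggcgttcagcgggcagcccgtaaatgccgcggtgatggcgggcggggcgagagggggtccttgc
Hadhb was 6.48, 6.03, 6.18 and 6.0 in WT. In β-catΔEx3:Myc it was 6.53, 6.66, 6.89 and 6.63, above every WT array. It rose there by 0.50 ± 0.18 (adjusted p = 0.0484), and read 0.52 ± 0.20 above WT in β-catΔEx3 (adjusted p = 0.0626). Hadha differed by 0.15 ± 0.28 in β-catΔEx3 and by 0.05 ± 0.26 in β-catΔEx3:Myc, and its groups overlapped. Whether the subunits differ from each other was not tested. The Hadhb difference in β-catΔEx3 passed without WT 1 (0.62, adjusted p = 0.0425) and without β-catΔEx3 3 (0.74, adjusted p = 0.0142). Its call in β-catΔEx3:Myc was lost under the slide block (0.40, adjusted p = 0.437). That call was also lost without WT 2, WT 3, WT 4 or any one β-catΔEx3:Myc array (largest adjusted p 0.120). Quantile normalization, the authors' matrix and no filter on dim probes ended it as well. So did the 75th percentile taken over probes detected on all arrays.

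Acaa2, a thiolase that releases acetyl-CoA, read below WT, where Hadhb read above it. Acaa2 was 9.31, 8.85, 8.77 and 8.88 in WT. It was 8.25, 8.61 and 7.06 in β-catΔEx3 and 7.87, 8.35, 8.25 and 8.15 in β-catΔEx3:Myc. All 7 mutant arrays were below all 4 WT arrays. It fell in β-catΔEx3, by a difference of -0.98 ± 0.32 (adjusted p = 0.0345). That call was lost with no filter on dim probes and without any one WT array. It was also lost without β-catΔEx3 3, where the difference was -0.52 with the largest adjusted p (0.0903). The difference of -0.80 ± 0.30 in β-catΔEx3:Myc missed the threshold (adjusted p = 0.0506). It passed in 8 of the alternatives, among them without β-catΔEx3 2 or β-catΔEx3 3. Under the slide block neither was called (-1.35, adjusted p = 0.145, and -1.21, adjusted p = 0.181). Hadh, the dehydrogenase for shorter chains, differed by -0.18 ± 0.26 and 0.07 ± 0.24, and Etfdh, which passes the electrons to ubiquinone, by -0.25 ± 0.22 and -0.18 ± 0.20, without a call.

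The auxiliary enzymes that let unsaturated fatty acids through the spiral were not called in either mutant. Eci1 and Eci2 are isomerases and Decr1 is a reductase. Eci1 differed by 0.32 ± 0.40 in β-catΔEx3 and 0.37 ± 0.37 in β-catΔEx3:Myc, Eci2 by -0.09 ± 0.28 and 0.30 ± 0.26, and Decr1 by -0.13 ± 0.23 and -0.26 ± 0.22. Decr1 passed in β-catΔEx3:Myc under quantile normalization and in the authors' matrix. A second Decr1 probe gave -0.44 ± 0.41 in β-catΔEx3 and -0.70 ± 0.38 in β-catΔEx3:Myc. Eci1 ranged from 5.51 on β-catΔEx3 3 to 7.30 on β-catΔEx3 2, a wider span than the 5.78 to 6.79 of WT.

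Bdh1, which reduces acetoacetate to β-hydroxybutyrate, the main circulating ketone body, fell in both mutants. It was 6.57, 6.07, 6.19 and 6.60 in WT. It was 5.23, 4.73 and 4.32 in β-catΔEx3 and 5.05, 5.03, 5.32 and 5.83 in β-catΔEx3:Myc, without overlap with WT. The difference was -1.60 ± 0.27 (3.03-fold lower, adjusted p = 0.00129) and -1.05 ± 0.25 (2.07-fold lower, adjusted p = 0.00623). The other probes for Bdh1 gave -2.43 and -1.49 in β-catΔEx3 and -1.77 and -0.98 in β-catΔEx3:Myc. Under the slide block neither was called (adjusted p = 0.0724 and 0.162), and within slide 4 the single mutant arrays were 2.28 and 0.77 log2 units below the single WT array.

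Ehhadh, the bifunctional enzyme of peroxisomal β-oxidation, rose in β-catΔEx3 by 1.27 ± 0.43 (2.42-fold, adjusted p = 0.0392). Its levels were 5.86, 6.69 and 5.14 there, against 5.28, 4.55, 4.75 and 3.93 in WT and 5.46, 5.52, 5.68 and 4.44 in β-catΔEx3:Myc. The lowest β-catΔEx3 array lay under the highest WT array, WT 1. The difference in β-catΔEx3:Myc was 0.65 ± 0.40 (adjusted p = 0.215). The call was lost in 12 of 20 alternatives, among them without WT 2, WT 3, WT 4, β-catΔEx3 1, β-catΔEx3 2, β-catΔEx3:Myc 1 or β-catΔEx3:Myc 2. Without β-catΔEx3 2 the difference was 0.87, with the largest adjusted p of these (0.143).

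Ppara itself, the receptor, fell in both mutants. It was 6.27, 5.78, 6.15 and 6.19 in WT. It was 5.61, 5.66 and 5.76 in β-catΔEx3 and 5.02, 5.16, 5.24 and 5.11 in β-catΔEx3:Myc. The 3 groups did not overlap, although WT 2 and β-catΔEx3 3 were almost level. The difference from WT was -0.42 ± 0.15 in β-catΔEx3 (1.34-fold lower, adjusted p = 0.0468) and -0.97 ± 0.14 in β-catΔEx3:Myc (1.95-fold lower, adjusted p = 0.000419). The other Ppara probes gave -0.29 and -0.55 in β-catΔEx3 and -0.85 and -1.18 in β-catΔEx3:Myc. The β-catΔEx3 call was lost in 14 of 20 alternatives, among them without any one array other than WT 2. Without WT 1 the difference was -0.36 (adjusted p = 0.112), and the largest adjusted p came without β-catΔEx3 1 (0.129). The β-catΔEx3:Myc call was lost in 1 of the 20, the slide block (-1.05, adjusted p = 0.0521).

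Pdk4, the kinase that shuts pyruvate dehydrogenase and so spares glucose when fat is burned, had the largest rise of any member. It was 0.25, 0.12, 0.10 and -0.40 in WT. It was 3.45, 3.95 and 3.63 in β-catΔEx3 and 4.52, 4.12, 3.89 and 4.01 in β-catΔEx3:Myc. Every mutant array was more than 3 log2 units above every WT array. Pdk4 rose by 3.66 ± 0.21 (12.7-fold, adjusted p = 4.09e-06) in β-catΔEx3 and by 4.12 ± 0.20 (17.4-fold, adjusted p = 7.55e-07) in β-catΔEx3:Myc. The rise under the slide block was 3.96 and 4.49 (adjusted p = 0.00232 and 0.00151), and it was called in all 20 alternatives of each comparison. Its promoter, printed above, has no match to the direct repeat in these 250 bases. Pdk4 is also expressed in muscle, and β-catΔEx3:Myc 4 carried skeletal muscle transcripts: the summed linear signal of 4 tested muscle markers was 80.7 times the upper quartile there, against 0.402 to 0.883 in WT and 0.459 to 1.24 in β-catΔEx3. Without that array the Pdk4 rise in β-catΔEx3:Myc was 4.16 ± 0.22 (adjusted p = 4.36e-06).

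Acot1 and Acot2 are neighbouring acyl-CoA thioesterase genes, Acot1 cytosolic and Acot2 mitochondrial, and both are classical Ppara targets. Acot2 was -1.42, -2.06, -1.69 and -2.69 in WT. It was -0.54, 0.07 and -0.68 in β-catΔEx3 and -0.24, -0.36, 0.07 and -0.27 in β-catΔEx3:Myc, all above WT. It rose by 1.58 ± 0.29 (3.00-fold, adjusted p = 0.00228) and by 1.77 ± 0.27 (3.41-fold, adjusted p = 0.000633), and was called in all 20 alternatives of each. Acot1 was 4.00, 2.76, 2.46 and 2.02 in WT. It was 2.10, 2.69 and 0.47 in β-catΔEx3 and 3.14, 2.66, 2.16 and 3.37 in β-catΔEx3:Myc, overlapping WT in both. Its differences of -1.06 ± 0.57 and 0.03 ± 0.53 were not called. The coding sequences of these paralogs are closely alike, so a probe for one may also take up transcripts of the other.

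Fabp1, the abundant liver fatty acid binding protein that ferries ligands to Ppara, had the largest fall. It was tight in WT, at 9.64, 9.60, 9.59 and 9.91. It was 5.15, 6.93 and 2.21 in β-catΔEx3 and 6.46, 5.28, 5.24 and 8.0 in β-catΔEx3:Myc. The mutants did not overlap WT, and their spread was wide (SD 2.38 and 1.30, against 0.15 in WT). The difference was -4.93 ± 0.96 in β-catΔEx3 (30.4-fold lower, adjusted p = 0.00308) and -3.44 ± 0.89 in β-catΔEx3:Myc (10.8-fold lower, adjusted p = 0.0105). Without β-catΔEx3 3 the first was -3.65 (adjusted p = 0.00611). The calls were lost under the slide block, which gave -5.72 and -3.89 (adjusted p = 0.0942 and 0.210).

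Angptl4, a secreted inhibitor of lipoprotein lipase, was 6.12, 6.63, 6.77 and 7.0 in WT and 6.02, 5.50 and 3.86 in β-catΔEx3. All β-catΔEx3 arrays were below WT. It fell there, by a difference of -1.51 ± 0.46 (2.84-fold lower, adjusted p = 0.0267). The call was lost without WT 2, WT 3, WT 4 or β-catΔEx3 3, and without the last the difference was -0.87 (adjusted p = 0.0756). In β-catΔEx3:Myc it read -0.70 ± 0.43 (adjusted p = 0.212). The slide block gave -2.56 (adjusted p = 0.0526) and -1.95 (adjusted p = 0.0981).

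Cyp4a10 and Cyp4a14, the ω-hydroxylases most often used as readouts of Ppara activity, varied widely among WT mice. Cyp4a14 was 7.25 on WT 1 and 4.81, 4.5 and 4.26 on the other WT arrays. It was 6.81, 6.19 and 5.42 in β-catΔEx3 and 6.55, 6.69, 7.0 and 7.47 in β-catΔEx3:Myc. Only WT 1 reached the mutant range. It rose in β-catΔEx3:Myc by 1.72 ± 0.59 (3.30-fold, adjusted p = 0.0376). The β-catΔEx3 difference of 0.93 ± 0.64 was not called (adjusted p = 0.279), but without WT 1 it was 1.61 ± 0.36 (adjusted p = 0.00884), and the β-catΔEx3:Myc difference without WT 1 was 2.40. Without β-catΔEx3:Myc 4, the array with muscle transcripts, the β-catΔEx3:Myc call was lost (1.54 ± 0.65, adjusted p = 0.0854). That call was also lost without WT 2, WT 3, WT 4 or any other β-catΔEx3:Myc array (largest adjusted p 0.0983). The slide block ended it too (2.56, adjusted p = 0.207). So did quantile normalization, the authors' matrix, the 75th percentile taken over probes detected on all arrays, and no filter on dim probes. Cyp4a10 was 7.31, 5.05, 5.95 and 5.17 in WT, 7.64, 8.06 and 5.52 in β-catΔEx3 and 6.55, 7.08, 7.97 and 7.51 in β-catΔEx3:Myc. Its differences of 1.21 ± 0.68 and 1.41 ± 0.63 were not called (adjusted p = 0.188 and 0.0947). Without β-catΔEx3 3 the first was 1.98 ± 0.61 and passed (adjusted p = 0.0339), and the second passed without WT 1 or without β-catΔEx3 3. The other Cyp4a10 probes gave 1.48 and 1.02 in β-catΔEx3 and 1.66 and 1.28 in β-catΔEx3:Myc.

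Of the remaining targets, Plin2, a lipid droplet coat protein, differed by -0.43 ± 0.26 in β-catΔEx3 and by -0.63 ± 0.24 in β-catΔEx3:Myc (adjusted p = 0.214 and 0.0534). The second passed in 8 of the alternatives, among them quantile normalization and without WT 3, WT 4, β-catΔEx3 2 or β-catΔEx3:Myc 3. Vnn1, a pantetheinase, differed by -0.96 ± 0.40 and -0.30 ± 0.37 (adjusted p = 0.0806 and 0.536), and the first passed without β-catΔEx3 1. Fgf21, the fasting hormone secreted by liver, was 1.46, -1.35, -1.35 and -0.33 in WT. It was 0.23, 0.91 and 4.23 in β-catΔEx3 and -0.07, -4.79, -1.21 and -0.95 in β-catΔEx3:Myc, where the second array was not well above background. The β-catΔEx3 arrays all lay above the β-catΔEx3:Myc arrays, and both overlapped WT. The differences from WT were 2.18 ± 1.24 and -1.36 ± 1.15 and were not called (adjusted p = 0.193 and 0.366). The first was 0.96 without β-catΔEx3 3, and the second was -0.35 without β-catΔEx3:Myc 2, the array not well above background.

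**Figure D3:**
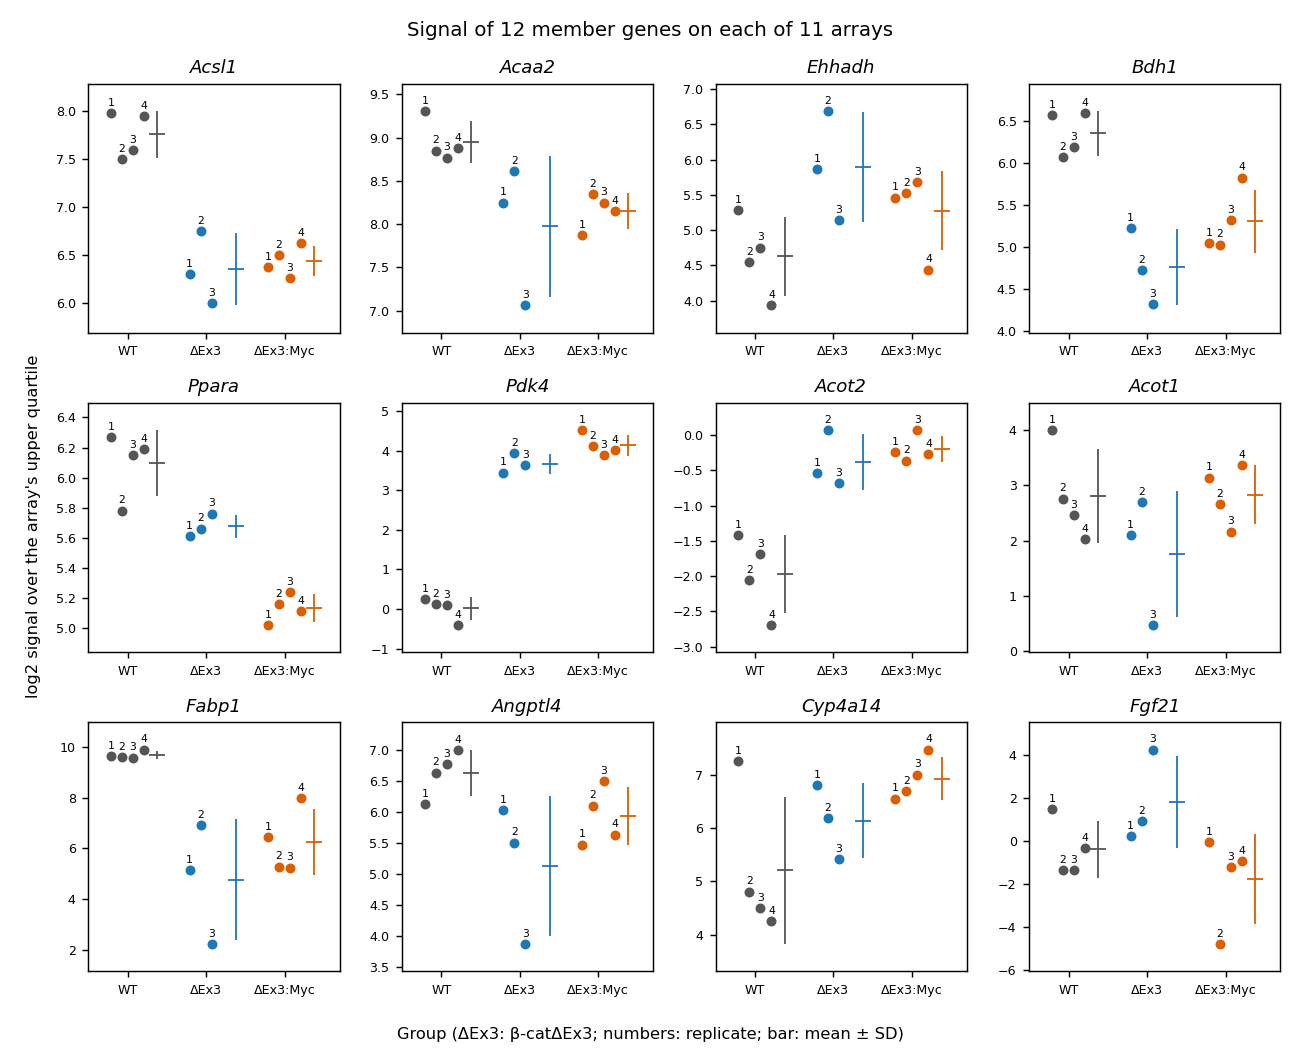
Each panel gives 1 member's log2 signal over the array's upper quartile on the 11 arrays, with the replicate number at each point and the group's mean ± SD at its right. Pdk4, Acot2, Acsl1, Acaa2, Bdh1 and Fabp1 separate both mutants from WT, Ppara separates all 3 groups, and WT 1 stands high for Cyp4a14 and Acot1.

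β-catΔEx3:Myc against β-catΔEx3 gave no called difference among the members. Myc itself read 1.87 ± 0.73 higher in β-catΔEx3:Myc than in β-catΔEx3 and was not called either (adjusted p = 0.395). Over all items, 0.108% rose and 0.144% fell in β-catΔEx3:Myc against β-catΔEx3, and a count of 0 among 30 members is no departure from that background. At an unadjusted p under 0.05 there were 2 members, Ppara and Fgf21, and limma called none in any alternative. The share of all items under that limit was not counted, so the 2 have no background beside them. They are described because their unadjusted p was the lowest of the 30, a choice that favours large differences. Ppara was lower in β-catΔEx3:Myc by -0.54 ± 0.15 (95% interval -0.87 to -0.22, unadjusted p = 0.00400, adjusted p = 0.178) and lower in 4 of 4 arrays than any β-catΔEx3 array. Within slide 2 the difference of means was -0.55 and within slide 4 it was -0.65. Fgf21 read -3.55 ± 1.24 (95% interval -6.29 to -0.80, unadjusted p = 0.0161, adjusted p = 0.316), and -2.33 without β-catΔEx3 3. The intervals of the other large movers were -0.02 to 0.93 for Pdk4, -0.46 to 0.83 for Acot2, -0.37 to 0.54 for Acsl1, -0.04 to 1.14 for Bdh1 and -0.65 to 3.62 for Fabp1. These do not show that the groups were alike.

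The wider pathway was read from 5 lists chosen, like the members, with results of these data known. Of 8 tested genes of ketone body metabolism, 1 rose and 1 fell in β-catΔEx3 and 1 rose and 2 fell in β-catΔEx3:Myc, with medians of -0.04 and -0.31. Over all items 21.6% rose and 15.5% fell in β-catΔEx3 and 25.3% rose and 17.1% fell in β-catΔEx3:Myc, with medians of 0.10 and 0.14, and the counts of each list stand beside these shares. With 8 genes, 1 call more or fewer moves a share across that background. The counts of the lists under the slide block stand beside 926 higher and 886 lower of 22282 items in β-catΔEx3. For β-catΔEx3:Myc these were 956 and 991. Bdh2, a cytosolic relative of Bdh1, was 2.68, 2.54, 2.97 and 4.06 in WT. It was -0.83, 0.11 and -0.78 in β-catΔEx3 and -2.71, -1.76, -2.63 and 0.24 in β-catΔEx3:Myc, all below WT. It fell in both mutants, with differences of -3.56 ± 0.66 (adjusted p = 0.00233, 0.0517 with slide as a block) and -4.78 ± 0.61 (adjusted p = 0.000235, 0.0293 with the block). Aacs, which uses acetoacetate for lipid synthesis, fell in β-catΔEx3:Myc, by a difference of -1.93 ± 0.60 (adjusted p = 0.0248, 0.635 with slide as a block). That call was lost without WT 2, WT 3 or β-catΔEx3:Myc 3 (largest adjusted p 0.0654). Slc16a7, a monocarboxylate transporter, rose by 1.24 ± 0.28 and 1.33 ± 0.26 (adjusted p = 0.00663 and 0.00246).

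Of 23 other tested genes of mitochondrial fatty acid oxidation, 8 rose and 2 fell in each mutant, with medians of 0.21 and 0.27. The share that rose was above that of all items (21.6% and 25.3%) and the share that fell was below it (15.5% and 17.1%), which was not tested as a set. Under the slide block no gene rose and 1 fell in β-catΔEx3, and 2 rose and 1 fell in β-catΔEx3:Myc. The acyl-CoA synthetases went opposite ways. Acsl5 fell, with differences of -1.21 ± 0.30 (adjusted p = 0.00962) and -1.72 ± 0.27 (adjusted p = 0.000781), while Acsl4, which prefers arachidonic acid, rose by 1.01 ± 0.19 and 1.16 ± 0.18 (adjusted p = 0.00275 and 0.000654). Mmut, methylmalonyl-CoA mutase, rose by 1.07 ± 0.21 and 1.01 ± 0.20. Hsd17b10 rose by 1.04 ± 0.31 and 1.08 ± 0.29, and Acad10 by 0.94 ± 0.22 and 1.08 ± 0.21. The Hsd17b10 call in β-catΔEx3 was lost without WT 2, WT 3 or β-catΔEx3 1 (largest adjusted p 0.105). Of these calls, Acsl4 in β-catΔEx3:Myc alone held with slide as a block. Cpt1b, the muscle form of the Cpt1 transferase, was -1.93, -1.92, -1.72 and -1.98 in WT and -0.75, -0.28, -0.93 and 0.62 in β-catΔEx3:Myc, where it rose by 1.55 ± 0.29 (adjusted p = 0.00186). Its highest value was on β-catΔEx3:Myc 4, where 3 of the 4 tested muscle markers (Acta1 4.51, Tnnc2 5.40 and Cox6a2 3.90) were above 3. Without that array Cpt1b rose by 1.24 ± 0.18 (adjusted p = 0.000768).

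Of 33 peroxisomal genes, 8 rose and 8 fell in β-catΔEx3 and 5 rose and 8 fell in β-catΔEx3:Myc, with medians of 0.18 and 0.05. Beside 21.6% and 25.3% of all items, the share that rose was near the background in β-catΔEx3 and below it in β-catΔEx3:Myc. The share that fell was above 15.5% and 17.1%. These became 1 and 4, and 0 and 4, under the slide block. Acox2, the oxidase of bile acid side chains, rose by 1.53 ± 0.21 and 1.49 ± 0.19 (adjusted p = 0.000440 and 0.000230). Nudt19, a CoA diphosphatase, rose by 1.51 ± 0.22 and 1.64 ± 0.21, while its relative Nudt7 fell, with differences of -2.45 ± 0.38 (adjusted p = 0.000967) and -3.27 ± 0.36 (adjusted p = 9.50e-05). Hao1, the liver's glycolate oxidase, was 5.51, 5.19, 4.85 and 5.98 in WT, -0.83, -0.70 and -3.41 in β-catΔEx3, and 0.42, 1.56, -0.63 and 3.12 in β-catΔEx3:Myc. It fell, with differences of -7.03 ± 0.86 (adjusted p = 0.000262) and -4.27 ± 0.80 (adjusted p = 0.00189). Abcd2, a peroxisomal transporter of very long chains, fell, with differences of -3.78 ± 0.88 and -2.76 ± 0.82, and was above background on 2 of 3 β-catΔEx3 arrays. Its call in β-catΔEx3:Myc was lost without WT 1 or WT 3 (largest adjusted p 0.0566). The block ended the calls of Acox2, Nudt19 and Abcd2 in both mutants and that of Hao1 in β-catΔEx3:Myc.

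Of 36 other Ppara targets, 11 rose and 5 fell in β-catΔEx3 and 12 rose and 5 fell in β-catΔEx3:Myc, with medians of 0.28 and 0.48. The share that rose was above the 21.6% and 25.3% of all items, and the share that fell was slightly below the 15.5% and 17.1%, without a test of the set. Under the slide block 4 rose and 2 fell, and 6 rose and 2 fell. Cidec, a lipid droplet protein, was -1.64, -1.99, -1.57 and -2.38 in WT and 3.15, 1.21, 2.06, 1.97, 1.56, 2.58 and 1.56 over the mutant arrays. It rose by 4.04 ± 0.42 (16.4-fold, adjusted p = 0.000112) and 3.81 ± 0.39 (14.1-fold, adjusted p = 6.70e-05). Cd36, the fatty acid translocase, rose by 3.44 ± 0.25 (10.8-fold, adjusted p = 1.17e-05) and 2.05 ± 0.23 (4.14-fold, adjusted p = 0.000113). Plin4, another droplet coat protein, rose by 3.27 ± 1.01 and 2.79 ± 0.94 (adjusted p = 0.0280 and 0.0344). Its β-catΔEx3 call was lost without WT 1, WT 4, β-catΔEx3 1 or β-catΔEx3 3 (largest adjusted p 0.113). Its β-catΔEx3:Myc call was lost without WT 1, WT 3, WT 4 or β-catΔEx3:Myc 1, 2 or 3 (largest adjusted p 0.0884). The lipases split: Pnpla2, which starts triglyceride breakdown, rose by 2.23 ± 0.33 and 2.51 ± 0.31, and Mgll, which ends it, fell, with differences of -2.07 ± 0.32 and -2.59 ± 0.29. Fabp2, the intestinal relative of Fabp1, fell, with differences of -2.98 ± 0.49 and -2.40 ± 0.45. Cidec, Cd36 and Mgll stayed called with slide as a block in both mutants, and Plin4, Pnpla2 and Fabp2 did not.

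Of 31 regulators, 5 rose and 3 fell in β-catΔEx3 and 5 rose and 7 fell in β-catΔEx3:Myc, with medians of -0.01 and -0.13. Fewer rose than the 21.6% and 25.3% of all items. The share that fell was below 15.5% in β-catΔEx3 and above 17.1% in β-catΔEx3:Myc. The slide block left 1 higher and 1 lower, and 1 higher and 2 lower. Pparg, the receptor that drives fat storage and also acts on Cidec and Cd36, was 1.92, 1.65, 1.59 and 1.46 in WT. It was 4.55, 4.11 and 4.81 in β-catΔEx3 and 4.02, 4.39, 4.54 and 3.83 in β-catΔEx3:Myc. Every mutant array lay above WT, the reverse of Ppara. Pparg rose by 2.83 ± 0.22 (7.13-fold, adjusted p = 2.01e-05, 0.00763 with slide as a block) and 2.54 ± 0.21 (5.81-fold, adjusted p = 1.70e-05, 0.0115 with slide as a block). Adipocytes express Pparg, Cidec, Cd36 and Plin4 as well. Of 8 adipocyte markers, Lep, Plin1, Retn and Ucp1 were not above background on any array, and Adipoq was above it on too few arrays (under 3) to be tested. The other 3 were tested and none was called, and the summed signal of those 3 was 0.0954 to 0.971 times the upper quartile in WT, 0.143 to 0.219 in β-catΔEx3 and 0.133 to 0.423 in β-catΔEx3:Myc.

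Ppargc1a, the coactivator of Ppara in fasting, rose in β-catΔEx3:Myc by 2.38 ± 0.43 (adjusted p = 0.00165, 0.132 with slide as a block), and read 1.22 ± 0.47 above WT in β-catΔEx3 (adjusted p = 0.0643). Esrra, a receptor that acts with it on mitochondrial genes, rose by 1.48 ± 0.20 and 1.49 ± 0.19 (adjusted p = 0.000510 and 0.000225). The block ended these calls (adjusted p = 0.0958 and 0.0850). Rxra, the partner of Ppara, rose in β-catΔEx3 by 0.87 ± 0.26 (adjusted p = 0.0255), but its probes disagreed, and their mean gave -0.23 (adjusted p = 0.344). That call was also lost without WT 1, WT 2, β-catΔEx3 1 or β-catΔEx3 3 (largest adjusted p 0.100). In β-catΔEx3:Myc it read 0.59 ± 0.24 (adjusted p = 0.0750). Prkaa2, a catalytic subunit of AMP-activated kinase, rose in β-catΔEx3 by 0.78 ± 0.19 (adjusted p = 0.00957, 0.212 with slide as a block). Acacb, which makes the malonyl-CoA that holds back Cpt1, fell in β-catΔEx3:Myc, by a difference of -2.25 ± 0.41 (adjusted p = 0.00174, 0.237 with slide as a block). Lpin1, a phosphatidate phosphatase and coactivator, fell there, by a difference of -1.61 ± 0.53 (adjusted p = 0.0310), a call lost without WT 2, WT 3 or β-catΔEx3:Myc 1, 3 or 4 (largest adjusted p 0.0870), with slide as a block (-1.14, adjusted p = 0.530) and with no filter on dim probes (adjusted p = 0.0515). No gene of the 5 lists was called between β-catΔEx3:Myc and β-catΔEx3, beside 0.108% and 0.144% of all items.

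**Figure D4:**
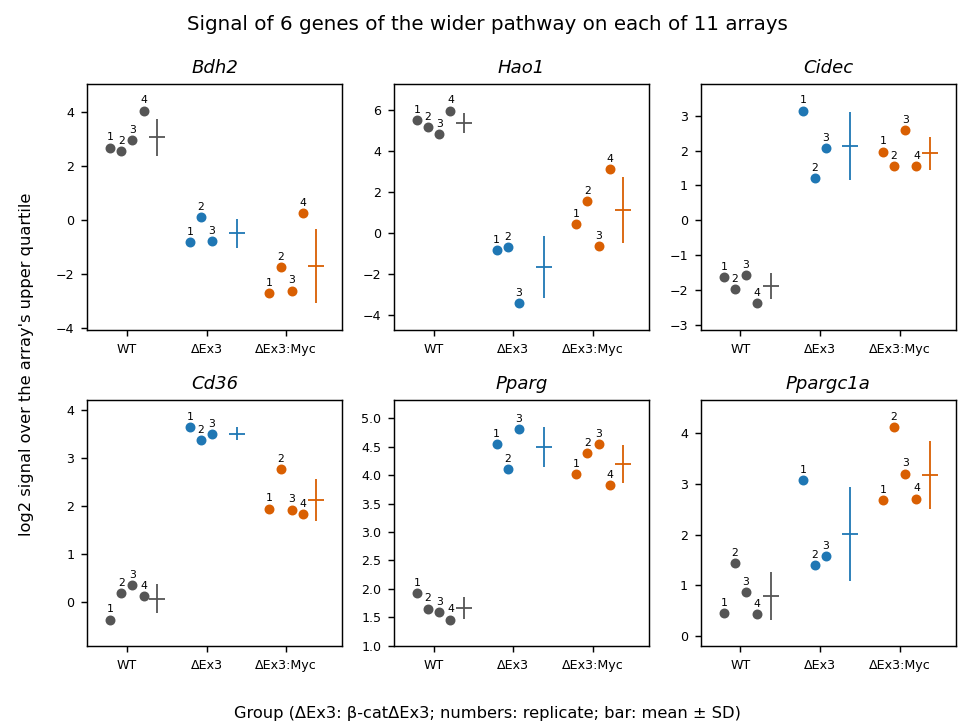
Each panel gives the log2 signal over the array's upper quartile of 1 gene of the wider pathway on the 11 arrays, with the replicate number at each point and the group's mean ± SD at its right. Bdh2 and Hao1 are lower in every mutant array than in WT, and Cidec, Cd36 and Pparg are higher.

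Markers of other cell types also differed between the groups. Of 8 hepatocyte markers tested, 4 fell in each mutant and 1 rose in β-catΔEx3:Myc. Hnf4a, a listed hepatocyte marker, is also in the list of regulators. Their summed signal was 5390 to 6542 times the upper quartile in WT, 4131 to 4659 in β-catΔEx3 and 3491 to 4536 in β-catΔEx3:Myc. Of 11 macrophage markers, 10 fell in β-catΔEx3 and 11 in β-catΔEx3:Myc, with sums of 240.4 to 378 in WT, 23.9 to 66.5 and 19.8 to 71.2. Of 11 markers of endothelium and stellate cells, 3 and 7 fell, with sums of 124 to 155, 62.7 to 76 and 35.2 to 46.6. Of 6 erythroid markers tested, 3 fell in β-catΔEx3, and 1 rose and 1 fell in β-catΔEx3:Myc. Erythroid sums were 349 to 642 in WT, 32.9 to 126 in β-catΔEx3 and 27.3 to 563 in β-catΔEx3:Myc. Neutrophil sums were 5.45 to 9.95, 0.886 to 3.67 and 3.99 to 72.4, the highest on β-catΔEx3:Myc 4. Of 5 neutrophil markers tested, 1 rose in β-catΔEx3:Myc and none was called in β-catΔEx3. Biliary sums were 1.83 to 4.21, 2.42 to 2.71 and 1.23 to 1.47. Of 6 biliary markers tested, 1 rose in β-catΔEx3 and 1 fell in β-catΔEx3:Myc. The part of these shifts in the members' differences was not tested.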

How the data were processed

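The submitters' processing notes and the file headers name Agilent Feature Extraction 10.7.1.1 as the scanner software. The deposited signals are in intensity units, background-subtracted, with 0 or 1 flags for outliers, saturation and background. The authors' deposited matrix holds log2 values and was an alternative here; its columns share their quartiles (median 4.51), so it was taken as quantile normalized. Outlier spots (137 to 209 of 59305 per array) were dropped, log2 spots of each of 55681 probes averaged, and the array's 75th percentile subtracted. Probes over background on 3 or more arrays stayed in (29695), were named by RefSeq accession where 1 matched, and the brightest represented its gene. The alternative with normexp (offset 50) was planned on mean signals and run on median signals, because the files hold no mean. The test was limma, version 3.58.1 in R 4.3.3, with 3 group means over 11 arrays, 8 residual and 2.51 prior degrees of freedom, and was tested on simulated data. No spot was saturated and no 2 arrays were identical. Titles give each array its own mouse number. The number of arrays limits the precision.

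Named genes are all members; of the pathway lists Rxra, Ppargc1a and, per list, up to 4 called genes with the largest change in each comparison with WT; Ctnnb1 and Myc. Some genes of the lists are not reported here and enter no count of a list. Cpt1b stands in 2 of the lists. Members and lists were chosen with earlier results of these data known. Probe positions in the genome were not used here.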

Additional observations from a re-analysis of the deposited data

Results flagged for a closer look

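In the 60 groups of 4 arrays examined (30 members in WT and in β-catΔEx3:Myc), 3 held an array set far apart from the rest by Dixon's test. Chance alone gives about 1 in 20. Acads was 2.47 on β-catΔEx3:Myc 3, with the nearest array at 2.26. Fabp1 was 9.91 on WT 4, with the nearest at 9.64. Decr1 was 7.87 on WT 1, with the nearest at 7.47. Each gap is small beside the called differences of members such as Pdk4.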

How the results depend on the processing

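Of 19 called member differences from WT, 11 kept the call without any single array and 6 with slide as a block (Pdk4, Acot2 and Acsl1 in both mutants). Of 47 calls of named genes outside the members, 40 and 16 did. The matching shares over the calls of all items were not counted. Members that rose in β-catΔEx3 numbered 2 rather than 4 with the percentile taken over probes detected on all arrays, with no filter on dim probes and with slide as a block. They numbered 2 to 7 without 1 array, and 10 without WT 1 and β-catΔEx3 3. That last alternative was chosen after seeing the data and moves most of the members, but not all, upward by construction. Those that fell there numbered 1 rather than 6 with the block and 3 to 6 without 1 array. Members that rose in β-catΔEx3:Myc numbered 2 rather than 5 under quantile normalization, the percentile over detected probes, the authors' matrix, no filter and the block, 8 without the 2 arrays, and 2 to 6 without 1 array. Those that fell there numbered 8 rather than 4 under quantile normalization and the authors' matrix, 1 with the block, and 4 to 6 without 1 array. The normexp alternative, planned on mean signals and moved to median signals once the files were seen, gave 5 and 6 in β-catΔEx3 and 5 and 5 in β-catΔEx3:Myc. In β-catΔEx3:Myc against β-catΔEx3 the counts were 0 throughout. Acadvl in β-catΔEx3:Myc turned from 0.00 to -0.32 under quantile normalization and the authors' matrix, and Rxra in β-catΔEx3 from 0.87 to -0.23 with the mean of its probes. The percentile over detected probes moved the median of all items from 0.10 to -0.08 in β-catΔEx3 and from 0.14 to -0.01 in β-catΔEx3:Myc, and the split of higher and lower items from 4803 and 3463 to 3414 and 4662, and from 5637 and 3814 to 4434 and 4741. With the block 926 and 886, and 956 and 991, items were called. Beyond these constructions the cause was not tested. No paired analysis was possible because the titles carry mouse numbers that no 2 groups share.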
